A study of Mus musculus with 8 samples.

Results

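The genes described here are 9 components of transforming growth factor beta (TGF-beta) signalling in mouse liver: the ligands Tgfb1, Tgfb2 and Tgfb3, the receptors Tgfbr1, Tgfbr2 and Tgfbr3, and the feedback or repressor genes Smad7, Tgif1 and Skil. They were chosen by name, and all 9 were found among the 22155 gene symbols of the count table, and all 9 passed the filter on low counts that left 13999 genes for testing. The series holds 8 liver RNA-seq libraries from C57BL/6 mice in 4 groups of 2. Yap controls were Yap1 floxed homozygotes given a GFP virus, and Yap1 knockouts were given an iCre virus. The design text names both viruses as AAV8 and the deletion as hepatocyte-specific. Ctgf controls were Ctgf floxed mice with no virus named, and the other group was labelled Ctgf conditional knockout. The sources used here do not name the driver of that Cre. All 4 groups had the same injury: a liquid diet with 1% ethanol for 2 days and 2% ethanol for 10 days, and 1 dose of the liver toxin carbon tetrachloride at 1 μl per g body weight, 2 days before the livers were taken. The sample labels give an age of 8 to 10 weeks, and the design text 8 weeks. No uninjured liver was analysed here, so every level below is a level after injury.

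TGF-beta ligands are made as latent complexes that must be activated outside the cell. The active ligand binds the type II receptor Tgfbr2, which recruits and phosphorylates the type I receptor Tgfbr1, and this receptor phosphorylates Smad2 and Smad3, which enter the nucleus with Smad4. Smad7 blocks the type I receptor, while Skil (SnoN) and Tgif1 act as nuclear repressors of SMAD-driven transcription; Smad7 and Skil are themselves induced by the pathway. In liver the pathway restrains hepatocyte division and drives stellate cells to make matrix, and Yap1, a transcriptional coactivator of the Hippo pathway, and the matrix protein Ctgf are both linked to it.

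Tgif1 was the only member past the threshold in the edgeR fit of all 8 libraries. Its promoter windows with a motif match are therefore shown, with that of Tgfb2, the ligand with the lowest level in the Yap line. The other Tgif1 windows held none of the motifs searched and are not printed. The RefSeq promoter table (GRCm38.p6) held 10 windows for 5 members (Tgfb1, Tgfb2, Tgfbr1, Tgfbr2 and Tgif1), 5 of them for alternative starts of Tgif1. Promoters of Tgfb3, Tgfbr3, Smad7 and Skil were not analysed here. The 250 bases before each start were searched on both strands for 5 motifs: the TEAD motif GGAATG, the palindromic SMAD element GTCTAGAC, the short SMAD element CAGACA, the AP-1 motif TGAGTCA and the TGIF motif TGACAG. Only CAGACA was found in a member's window, in 4 of the 10, which belong to Tgfb2, Tgfbr1 and Tgif1. Of all 32851 windows of that length, 17.1% held it. Windows of alternative starts of 1 gene are not separate members. From the most upstream start on, the Tgif1 windows held 14, 0, 151, 24 and 250 bases that GENCODE places in exons of the gene. The shares of all windows were 12.6% for GGAATG, 0.167% for GTCTAGAC, 4.46% for TGAGTCA and 15.9% for TGACAG. The 3 sequences below run 5′ to 3′ on the minus strand, the strand of both genes, with CAGACA or its reverse complement in capitals. A match to letters is a description and does not show binding.
Tgif1, chr17:70853533-70853782, upstream start: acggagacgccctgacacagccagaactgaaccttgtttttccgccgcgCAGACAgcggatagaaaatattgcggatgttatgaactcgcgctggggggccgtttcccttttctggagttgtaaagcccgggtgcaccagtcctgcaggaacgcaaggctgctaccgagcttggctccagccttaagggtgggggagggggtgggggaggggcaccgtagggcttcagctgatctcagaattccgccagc
Tgif1, chr17:70851735-70851984, next start: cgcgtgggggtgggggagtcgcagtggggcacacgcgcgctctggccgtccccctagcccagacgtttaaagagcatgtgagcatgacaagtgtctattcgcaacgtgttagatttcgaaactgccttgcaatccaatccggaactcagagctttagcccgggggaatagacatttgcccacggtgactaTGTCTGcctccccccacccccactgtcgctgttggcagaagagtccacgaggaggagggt
Tgfb2, chr1:186705990-186706239: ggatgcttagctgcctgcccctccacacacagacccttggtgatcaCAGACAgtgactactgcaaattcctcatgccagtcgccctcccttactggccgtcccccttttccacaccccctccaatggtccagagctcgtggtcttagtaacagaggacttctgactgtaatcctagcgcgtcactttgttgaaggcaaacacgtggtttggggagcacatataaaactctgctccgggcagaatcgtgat

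Counts per library totalled 26904021 to 33488609, and levels are given as CPM, reads of a gene per 1000000 counted reads, after scaling by the trimmed mean of M values (TMM). Hepatocyte transcripts were present in every library, with a summed level of 49279 to 94055 CPM over 9 markers. The targeted genes check the labels. Yap1 stood at 107 and 76.1 CPM in the Yap controls and at 31.0 and 32.5 CPM in the Yap1 knockouts, a log2 fold change of -1.53 ± 0.22 (SE; edgeR quasi-likelihood test, adjusted p = 0.0557). Ctgf was measured at 28.8 and 32.1 CPM in its floxed controls, at 8.02 CPM in replicate 1 labelled Ctgf knockout and at 49.2 CPM in replicate 2, above both controls. The label of replicate 2 is therefore doubted here. The driver of that Cre, and so the cells of the deletion, are not named, and a whole-liver level alone cannot settle whether the label holds. Yap control replicate 2 held exocrine pancreas transcripts at a summed 16055 CPM over 19 genes, where the other 7 libraries had 3.48 to 8.62 CPM. Nothing in the labels states separate animals for the replicates. P-values therefore measure the spread between libraries, which may be technical in part. In whole liver, fewer cells of a type and less RNA per cell cannot be told apart.

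Among the ligands, Tgfb1 was the most abundant per length in all 8 libraries. Per kilobase of exon, the mean level in the Yap controls was 10.9 ± 3.10 CPM per kb for Tgfb1 (SD, n = 2, as for the other means here), 1.62 ± 0.64 for Tgfb3 and 0.688 ± 0.249 for Tgfb2. Tgfb1 made up 81.6% and 83.8% of the summed ligand level in the Yap controls. Its share was 69.2% and 66.5% after Yap1 deletion, close to the 69.0% and 67.6% of the Ctgf controls. Tgfb3 took the next largest share in both Yap groups, with 12.96% and 11.3% in the controls and 26.0% and 27.1% in the knockouts. Tgfb2 took that place in the Ctgf controls, with 22.7% and 26.3%. In the 2 libraries labelled Ctgf knockout the Tgfb2 share was 41.7% and 10.9%, further apart than in any other group. The shares depend on the gene length used. With the longest transcript in place of the union of exons, the Tgfb3 share was 7.24% and 6.22% in the Yap controls and 15.6% and 16.4% in the Yap1 knockouts, the Tgfb1 share 89.3% and 90.7% against 81.2% and 79.2%, and the Tgfb2 share of the Ctgf controls 15.2% and 17.7%. Tgfb1 kept the largest share in every library with that length, and the second place was held by the same ligand in both Yap groups and in the Ctgf controls. These shares are descriptions of RNA levels and were not tested.

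**Figure D1:**
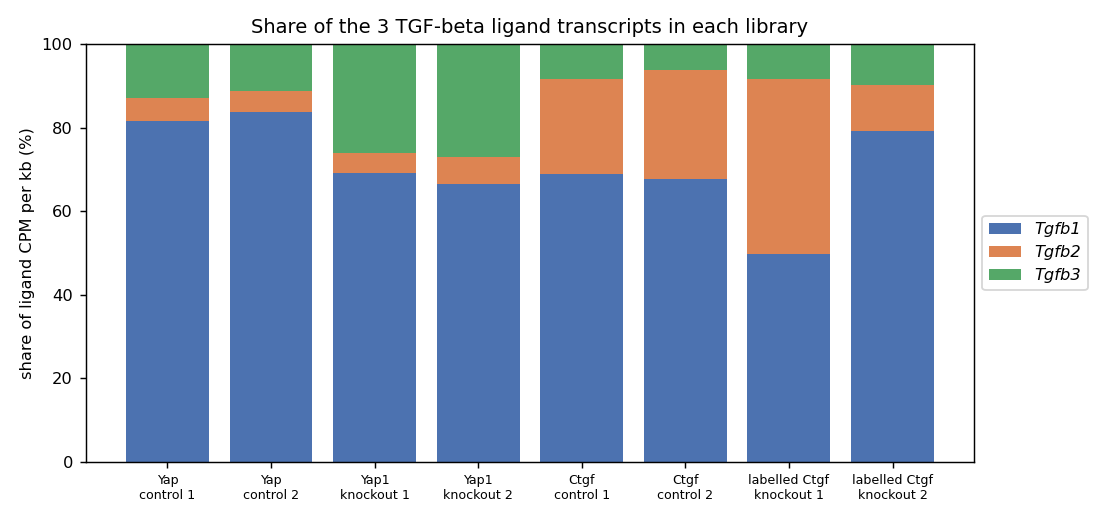
Share of each TGF-beta ligand (percent of the summed CPM per kb of Tgfb1, Tgfb2 and Tgfb3) in each of the 8 libraries, with the union of exons as length. Tgfb1 has the largest share in every library, Tgfb3 reaches 26.0% and 27.1% in the Yap1 knockouts, and Tgfb2 ranges from 10.9% to 41.7% in the libraries labelled Ctgf knockout.

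Tgfb3, a ligand best known from mesenchymal cells, lies on chromosome 12 at 86056745 to 86079041 (GRCm38, minus strand). It stood at 7.02 and 3.95 CPM in the Yap controls, 13.6 and 13.1 CPM in the Yap1 knockouts, 1.94 and 1.76 CPM in the Ctgf controls, and 1.53 and 2.58 CPM in the libraries labelled Ctgf knockout. Both Yap1 knockouts lay above both of their controls, and all 4 libraries of the Yap line lay above all 4 of the Ctgf line. The log2 fold change with Yap1 deletion was 1.28 ± 0.37 (SE; 95% interval 0.43 to 2.12) and did not pass the test (adjusted p = 0.228, over all genes tested). DESeq2 gave an adjusted p of 0.047 for it, and without Yap control 2 the edgeR value was 0.93 (adjusted p = 0.283). Between the controls the log2 difference, Yap line minus Ctgf line, was 1.57 ± 0.38 (adjusted p = 0.074). The gene shares 163 and 257 exonic bases with 2 genes of the opposite strand, and the sources used here do not state whether counting used strand.

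Tgfb1, the ligand best known from immune cells and platelets, lies on chromosome 7 at 25687002 to 25705077 (plus strand). Its level was 65.9 and 43.8 CPM in the Yap controls, 53.8 and 48.0 CPM in the Yap1 knockouts, 23.9 and 28.9 CPM in the Ctgf controls, and 13.3 and 31.1 CPM in the libraries labelled Ctgf knockout. The Yap1 knockouts lay between their 2 controls, with a log2 fold change of -0.11 ± 0.38 and an interval of -0.99 to 0.77, which allows a change of either sign (adjusted p = 0.903). Both Yap controls lay above both Ctgf controls, by 1.05 ± 0.39 on the log2 scale, which did not pass (adjusted p = 0.167). The library labelled Ctgf knockout with the lower Ctgf level was also the one with the lower Tgfb1 level. That library also had the lowest sums of the 8 for Kupffer (432 CPM), monocyte and macrophage (324 CPM) and neutrophil markers (78.6 CPM). No link between these levels was tested.

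Tgfb2 lies on chromosome 1 at 186622792 to 186705989 (minus strand). It had the opposite order between the lines, at 5.01 and 2.96 CPM in the Yap controls and 9.05 and 12.9 CPM in the Ctgf controls. The log2 difference was -1.46 ± 0.48 (adjusted p = 0.139). The Yap1 knockouts, at 4.31 and 5.29 CPM, overlapped their controls. An antisense gene shares 124 of its exonic bases. The libraries labelled Ctgf knockout stood at 12.8 and 4.93 CPM, a wider gap than in any other group.

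**Figure D2:**
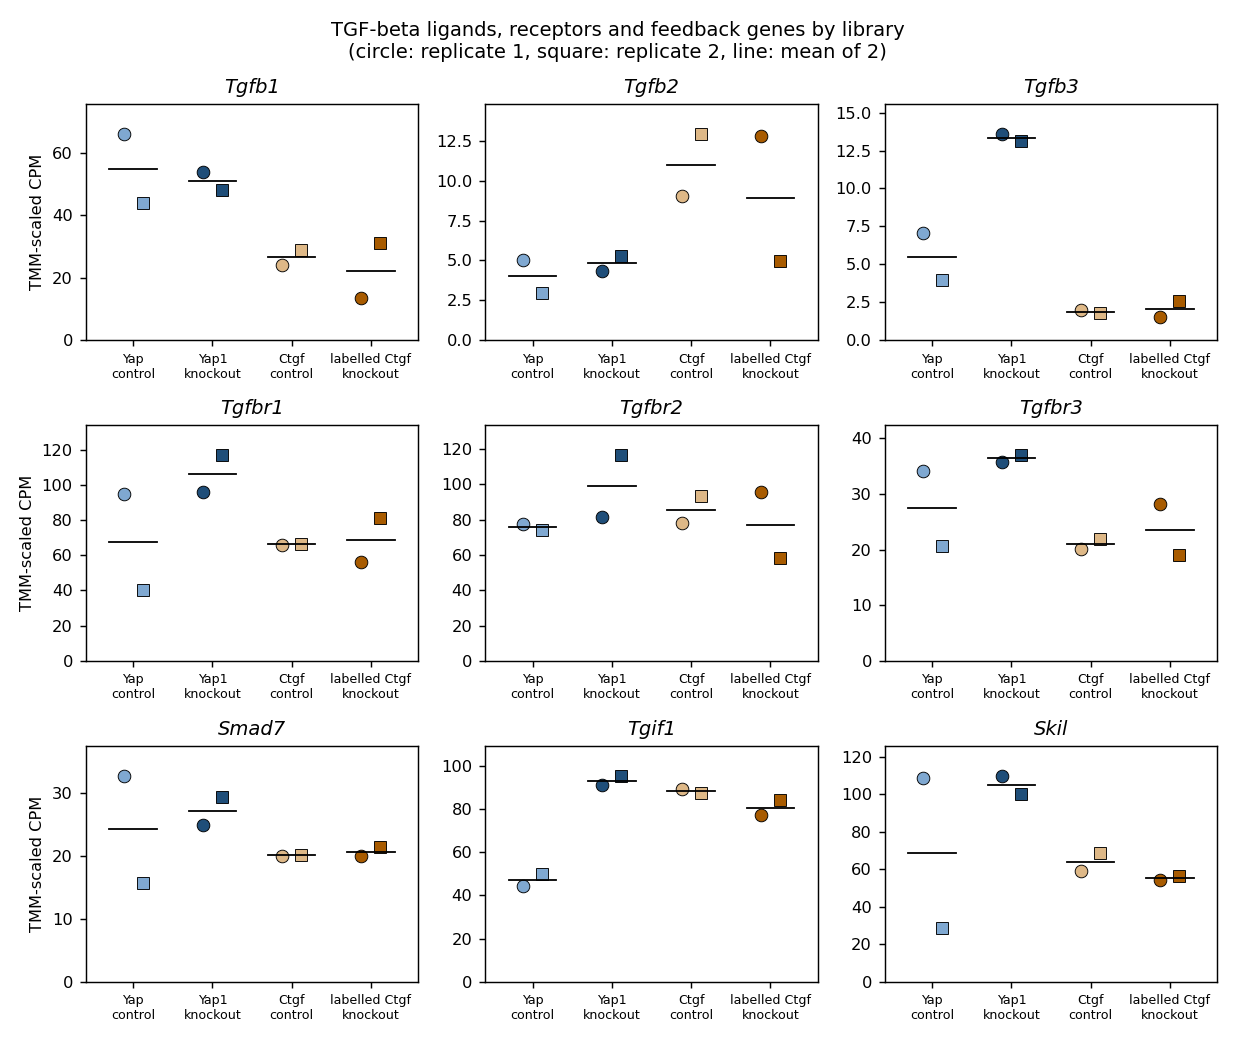
Level of each of the 9 genes in CPM (linear axis) in each library, by group. Points are single libraries; Tgif1 in the 2 Yap controls (44.2 and 49.6 CPM) lies below the other 6 libraries, and Tgfb3 is higher in the 4 Yap line libraries than in the 4 Ctgf line libraries.

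None of the 3 receptors was called in the 8-library fit, and all 3 varied less over the libraries than the 3 ligands (SD of log2 CPM under 0.5 against at least 0.5). Tgfbr2, the ligand-binding type II receptor (chromosome 9, 116084293 to 116175360, minus strand), was measured at 77.8 and 74.0 CPM in the Yap controls, 81.3 and 116 CPM in the Yap1 knockouts, 78.0 and 93.5 CPM in the Ctgf controls and 95.7 and 58.1 CPM in the libraries labelled Ctgf knockout. Yap1 knockout replicate 2 was the highest of the 8 libraries, and the log2 fold change with Yap1 deletion was 0.38 ± 0.29 (adjusted p = 0.544). Tgfbr1, the signalling type I receptor (chromosome 4, 47353222 to 47414931, plus strand), stood at 94.8 and 40.4 CPM in the Yap controls, 96.1 and 117 CPM in the Yap1 knockouts, 66.0 and 66.6 CPM in the Ctgf controls and 56.3 and 80.8 CPM in the libraries labelled Ctgf knockout. Both Yap1 knockouts lay above both controls, the nearest by little, and the low control is the library with pancreas transcripts. Its log2 fold change was 0.65 ± 0.38 (adjusted p = 0.452), and 0.17 (adjusted p = 0.481) without that library and Ctgf knockout replicate 2. Tgfbr3, the co-receptor betaglycan, which presents the ligand (chromosome 5, 107106570 to 107289629, minus strand), had levels of 34.1 and 20.7 CPM in the Yap controls and 35.8 and 36.9 CPM in the Yap1 knockouts, with 20.02 and 22.0 CPM in the Ctgf controls and 28.2 and 19.0 CPM in the libraries labelled Ctgf knockout. The gene shares 297 exonic bases with another gene of the same strand. The Tgfbr3 log2 fold change with Yap1 deletion was 0.41 ± 0.29 (adjusted p = 0.528). The low control is again the library with pancreas transcripts, and the value was 0.093 without it and 0.78 without Yap control 1.

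By mean level per length in the Yap controls, Tgfb1 (10.9 CPM per kb), Tgfbr1 (10.4 ± 5.89) and Tgfbr2 (9.27 ± 0.33) came first, and neighbours among them did not differ beyond their spread. Tgif1 (8.34 ± 0.69), Skil (7.09 ± 5.83), Smad7 (5.36 ± 2.65) and Tgfbr3 (4.19 ± 1.45) followed, again with overlapping spreads, and Tgfb3 and Tgfb2 were lowest. In the Ctgf controls Tgif1 led, at 15.7 ± 0.27 CPM per kb. These values use the union of all annotated exons. With the length of the longest transcript instead, the Yap control means were 21.3 CPM per kb for Tgfb1 and 14.9 CPM per kb for Tgif1, and those 2 genes came first.

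Tgif1, a homeodomain repressor that binds SMAD proteins and recruits histone deacetylases, had the smallest standard error of the 9 members. It lies on chromosome 17 at 70844205 to 70853546 (minus strand, 12 annotated transcripts). Its level was 44.2 and 49.6 CPM in the Yap controls, 91.1 and 95.1 CPM in the Yap1 knockouts, 89.3 and 87.2 CPM in the Ctgf controls, and 77.3 and 83.9 CPM in the libraries labelled Ctgf knockout. The 2 Yap controls were thus lower than all 6 other libraries. Tgif1 was lower in the Yap controls than in the Ctgf controls, with a log2 difference of -0.91 ± 0.18 (edgeR adjusted p = 0.0457). The log2 fold change with Yap1 deletion was 0.99 ± 0.18 (95% interval 0.58 to 1.40) and did not pass edgeR's test (adjusted p = 0.105), and DESeq2 gave an adjusted p of 0.000119. Yap1 and control comparisons share the Yap controls, so these 2 values are not independent. The virus (AAV8-GFP against none named), the line and any batch cannot be told apart in the control comparison.

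The control difference in Tgif1 was close to the threshold and was lost under several alternatives. Adjusted p was 0.0648 with upper quartile scaling, which moved the median of all genes from 0.04 to 0.18 in this comparison and Tgif1 to -0.77. It was 0.138 with only the libraries of the comparison and 0.0633 with a replicate block. Leaving out Yap1 knockout replicate 1 or 2 gave 0.145 and 0.147, leaving out Ctgf control replicate 1 or 2 gave 0.43 and 0.36, and leaving out Ctgf knockout replicate 1 gave 0.0521. Without Yap control replicate 2, the library with pancreas transcripts, it was 0.0225.

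Skil, a SMAD co-repressor (chromosome 3, 31095058 to 31122577, plus strand), and Smad7, the inhibitory SMAD (chromosome 18, 75367529 to 75395935, plus strand), showed no call in the 8-library edgeR fit. Skil stood at 109 and 28.7 CPM in the Yap controls, 109 and 100 CPM in the Yap1 knockouts, 59.1 and 68.5 CPM in the Ctgf controls, and 54.5 and 56.5 CPM in the libraries labelled Ctgf knockout. Smad7 stood at 32.7 and 15.8 CPM in the Yap controls, 25.0 and 29.4 CPM in the Yap1 knockouts, 19.99 and 20.2 CPM in the Ctgf controls, and 19.97 and 21.5 CPM in the libraries labelled Ctgf knockout. For both genes Yap control 1 was the highest or near the highest library and Yap control 2, with the pancreas transcripts, the lowest. The Skil log2 fold change with Yap1 deletion was 0.61 ± 0.50 (adjusted p = 0.574), 1.84 against Yap control 2 alone (adjusted p = 0.00605) and -0.05 against Yap control 1 alone (adjusted p = 0.914). The Smad7 log2 fold change was 0.16 ± 0.32 (adjusted p = 0.817), 0.76 against Yap control 2 alone (adjusted p = 0.0312) and -0.26 against Yap control 1 alone (adjusted p = 0.511).

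**Figure D3:**
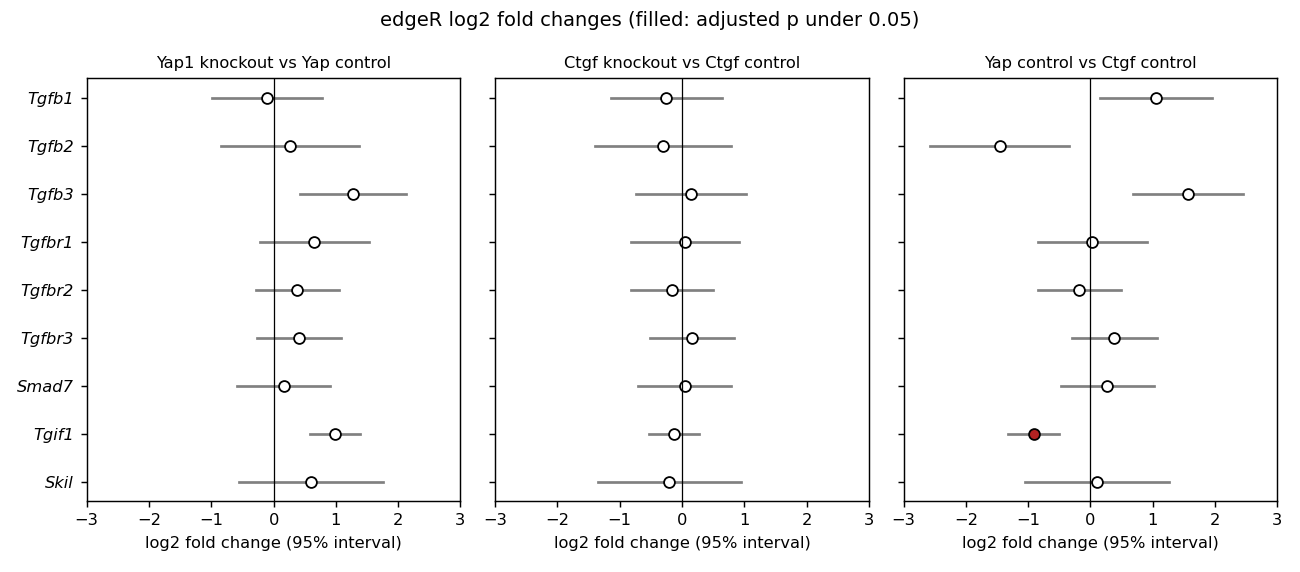
Log2 fold changes of the 9 genes with 95% intervals in 3 comparisons, from the edgeR fit; the filled point, Tgif1 in the control comparison (-0.91), passes adjusted p under 0.05. Tgif1 (0.58 to 1.40) and Tgfb3 (0.43 to 2.12) have intervals above 0 with Yap1 deletion without passing the adjusted threshold.

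With Yap1 deletion, 0 of the 9 members passed in either direction in the 8-library fit, where 0.0214% of all tested genes were called higher and 0.00714% lower. At an unadjusted p under 0.05, 2 members (Tgif1 and Tgfb3) were below the threshold against 13.8% of all genes. DESeq2 called the same pair, against 4.11% of all genes. Of the 9 fold changes 8 were above 0, with a median of 0.41 against -0.0046 for all genes tested. Without Yap control 2, the library with pancreas transcripts, 5 of the 9 were above 0 and the median was 0.093 (0.018 for all genes). Without Yap control 1 all 9 were above 0, with a median of 0.78 (0.012 for all genes). Both knockouts lay above both controls for 5 members (Tgfb3, Tgfbr1, Tgfbr2, Tgfbr3 and Tgif1) and below for 0, and the shares of all genes were 23.6% and 20.8%. Without Yap control 1, 5 members were called (Tgfb3, Tgfbr1, Smad7, Tgif1 and Skil) with 25.8% of all genes, and that fit sets the knockouts against the library with pancreas transcripts alone. Against Yap control 1 alone, 0 members were called with 0.280% of all genes, and Tgif1 had an adjusted p of 0.0554. With Ctgf knockout replicate 2 left out as well, 2 were called (Tgif1, adjusted p = 0.00981, and Tgfb3, adjusted p = 0.0494) with 6.58% of all genes. In each of these fits a group with 1 library is assumed to vary like the others.

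**Figure D4:**
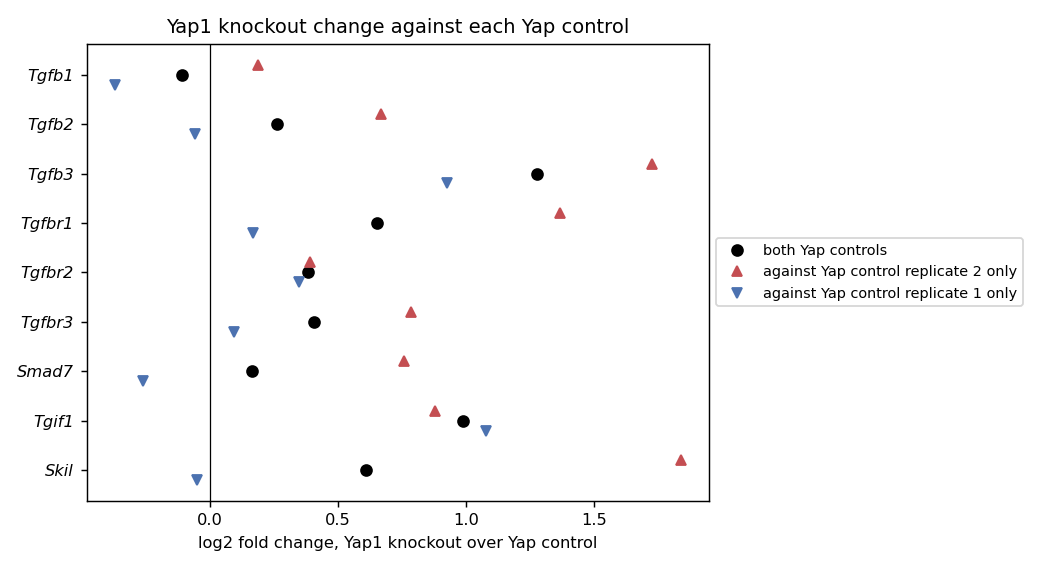
Log2 fold change of each gene with Yap1 deletion against each Yap control alone, with the value over both. Skil moves from -0.05 against replicate 1 to 1.84 against replicate 2, while Tgif1 stays between 0.88 and 1.08.

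The Ctgf comparison gave 0 members called by edgeR, with 0% of all genes called in both directions, and 0 of 9 at an unadjusted p under 0.05 against 1.98% of all genes; DESeq2 called 4 genes in all and limma-voom 1, none of them a member. Log2 fold changes ran from -0.31 for Tgfb2 to 0.17 for Tgfbr3, and each adjusted p was 1. Both libraries labelled Ctgf knockout were below both controls for Tgif1 and Skil, the 2 non-overlapping members, against 16.8% of all genes, and above for 0 members against 15.5%. Ctgf knockout replicate 2, whose Ctgf level lay above both controls, limits this comparison. Without it the Tgfb1 log2 fold change was -0.99 in place of -0.25. Replicate 2 itself had Tgfb1 above both Ctgf controls, at 31.1 against 23.9 and 28.9 CPM.

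Between the controls, the 9 members split. The call was Tgif1, 1 of 9 lower, against 1.11% of all genes, with 0 higher against 1.27%. At an unadjusted p under 0.05, 4 members were below the threshold (all 3 ligands and Tgif1) against 22.5% of all genes. The 2 Yap controls lay above both Ctgf controls for Tgfb1 and Tgfb3 (26.1% of all genes) and below for Tgfb2, Tgfbr2 and Tgif1 (27.0% of all genes). DESeq2 called 3 members (Tgfb2, Tgfb3 and Tgif1) against 11.3% of all genes. With the library with pancreas transcripts and Ctgf knockout replicate 2 both left out, 8 members were called, all but Tgfbr2, against 28.4% of all genes.

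The difference between the effects of the 2 knockouts was above 0 for all 9 members, with a median of 0.57 against -0.0082 for all genes, and 0 members passed, as 0% of all genes did in both directions. That common direction was lost with several single libraries left out. Without Yap control 2, 6 of the 9 were above 0, with a median of 0.15. Without both doubted libraries it was again 6 of 9, with a median of 0.19, and Tgfb2 (-0.28), Tgfbr3 (-0.33) and Smad7 (-0.26) were below 0. Tgfb1 was at -0.38 without Ctgf knockout replicate 1. The largest differences were those of Tgfb3, 1.13 ± 0.53 (adjusted p = 0.573), and Tgif1, 1.12 ± 0.25 (adjusted p = 0.402). DESeq2 called Tgif1 alone among the members (adjusted p = 0.0128), with 166 genes called in all. At an unadjusted p under 0.05, 1 member was below the threshold (Tgif1) against 8.87% of all genes.

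Of 96 further pathway genes in 6 lists, 95 were in the table and 90 were tested. edgeR called 0 of them with Yap1 deletion and 0 in the Ctgf comparison. Between the controls it called 10 higher and 2 lower, in the sense Yap line against Ctgf line, where 1.27% and 1.11% of all genes were called. Those 12 calls became 28 with DESeq2 (11.3% of all genes), 42 without both doubted libraries (28.4%), 38 without Yap control 1 (25.6%) and 24 without Yap control 2 (7.07%). They became 0 with only the 4 control libraries (0% of all genes), 0 without either Ctgf control (0%), and 2 without either Yap1 knockout (0.0414%). With Yap1 deletion DESeq2 called 12 of the pathway genes (4.11% of all genes), 17 were called without both doubted libraries (6.58%), and 31 without Yap control 1 (25.8%). At an unadjusted p under 0.05, 25 of the 90 were below the threshold with Yap1 deletion, against 13.8% of all genes, and 2 in the Ctgf comparison, against 1.98%. The 20 transcripts known to respond to TGF-beta had a median log2 fold change of 0.64 with Yap1 deletion, 18 of 20 above 0 and 15 with both knockouts above both controls, with none called. Over all genes tested the median was -0.0046, and 23.6% had both knockouts above both controls. Without Yap control 2 the median of the 20 was 0.61 (0.018 for all genes), and 16 were above 0. Lox, which cross-links collagen, stood at 17.8 and 12.2 against 47.9 and 52.3 CPM, a log2 fold change of 1.74 ± 0.28. Its adjusted p was 0.0858 with edgeR and 6.02e-06 with DESeq2. Ctgf itself, which is in that list, stood at 96.8 and 50.1 against 406 and 324 CPM in the Yap1 knockouts. For Ctgf the adjusted p was 0.25 with edgeR and 0.01 with DESeq2.

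**Figure D5:**
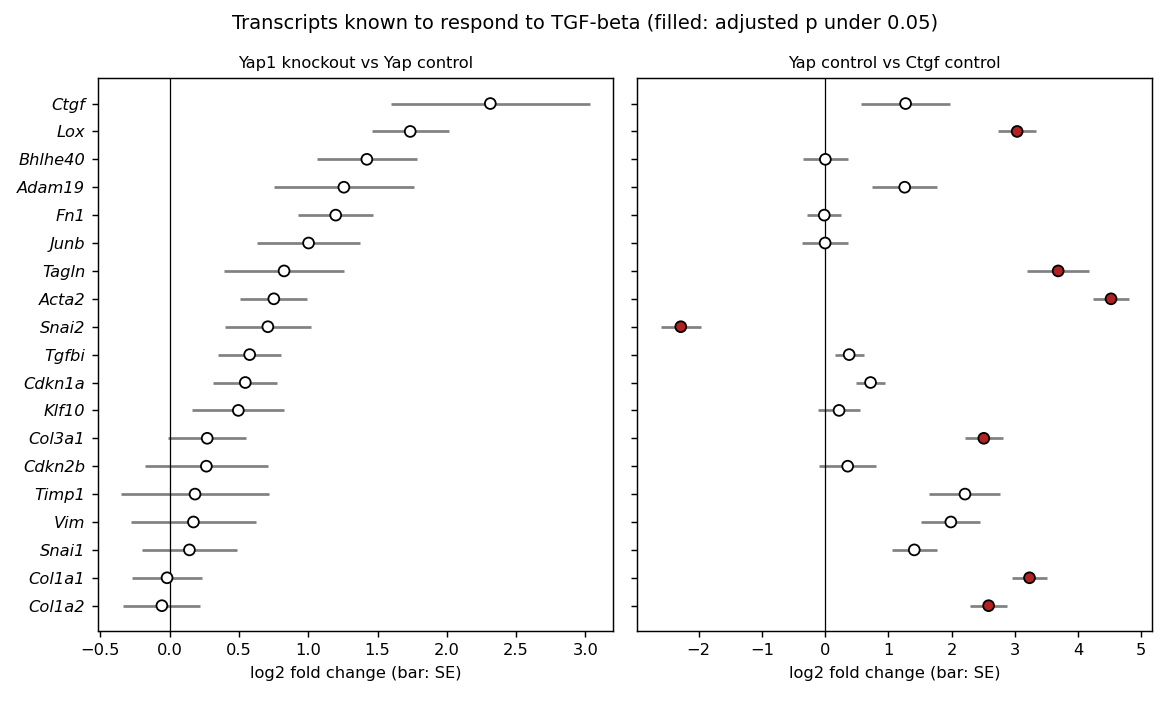
Log2 fold changes of 19 transcripts known to respond to TGF-beta, with SE bars, for Yap1 deletion (left) and for Yap control minus Ctgf control (right); filled points pass adjusted p under 0.05. In the edgeR fit no gene passes on the left, Lox (1.74) and Ctgf (2.31) included. Past the threshold on the right, 6 genes are higher and 1 lower.

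Between the controls, 6 of these 20 were called higher in the Yap line: the contractile genes Acta2 (log2 difference 4.52 ± 0.28, adjusted p = 0.00205) and Tagln (3.68 ± 0.49, adjusted p = 0.0234), the collagens Col1a1 (3.23), Col1a2 (2.58) and Col3a1 (2.51), and Lox (3.04). Snai2, a transcription factor of mesenchymal cells, was called lower (-2.28 ± 0.32, adjusted p = 0.0262). Of the other lists, Ltbp2, which binds microfibrils (2.42 ± 0.48, adjusted p = 0.0493), and Pmepa1, a feedback inhibitor induced by TGF-beta (1.84 ± 0.30, adjusted p = 0.0332), were called higher, and Smurf1, an E3 ligase that targets SMADs and receptors, was called lower (-1.33 ± 0.19, adjusted p = 0.0278). Smad3 stood at 35.9 and 15.1 against 50.2 and 58.0 CPM (adjusted p = 0.138).

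Markers of other cells moved with the Yap1 groups, and their part in the results above was not tested. Neutrophil markers summed to 164 and 270 CPM in the Yap controls and 1108 and 556 CPM in the Yap1 knockouts, with 10 of 10 non-overlapping and higher. Platelet markers summed to 32.0 and 30.8 against 77.0 and 81.5 CPM, with 6 of 6 higher, and erythroid markers to 123 and 229 against 467 and 403 CPM, with 6 of 7 higher. Stellate cell and fibroblast markers summed to 733 and 631 against 735 and 674 CPM, with 1 of 10 higher and 2 lower. Sinusoidal markers summed to 922 and 610 against 994 and 936 CPM and went both ways, with 4 of 10 higher and 3 lower. Higher and lower counts were 0 and 2 of 8 for Kupffer and 1 and 2 of 10 for monocyte and macrophage markers. They were 1 and 1 of 7 for cholangiocyte, 0 and 4 of 9 for T and NK, and 1 and 2 of 6 for B and plasma cell markers. Of all genes tested, 23.6% were higher and 20.8% lower in this sense. In the Ctgf controls, stellate markers were 494 and 517 CPM and sinusoidal markers 412 and 511 CPM, both below the Yap controls. Lower too were the sums of platelet (8.89 and 9.61 CPM), monocyte and macrophage (717 and 662 CPM) and cholangiocyte markers (374 and 312 CPM). In the Yap controls, monocyte and macrophage markers were 1254 and 2633 CPM and cholangiocyte markers 376 and 1485 CPM. T and NK and B and plasma cell markers were higher in the Ctgf controls, and the other sums overlapped. Over all 8 libraries Kupffer markers ranged from 432 to 1117 CPM, monocyte and macrophage markers from 324 to 2633 CPM, cholangiocyte markers from 267 to 1485 CPM, mesothelial markers from 3.82 to 39.4 CPM, T and NK markers from 1.66 to 5.44 CPM and B and plasma cell markers from 2.39 to 10.9 CPM. Yap control 2 had the highest sum for monocyte and macrophage, cholangiocyte and mesothelial markers. The next highest libraries stood at 1683, 655 and 15.04 CPM. These sums are not separate, since Spp1 is in the macrophage and cholangiocyte lists and Krt19 in the cholangiocyte and mesothelial lists. For 4 of the 5 mesothelial markers both Yap1 knockouts lay above both Yap controls, and for 0 below. The excess of Yap control 2 over the knockouts in that sum thus came from the remaining marker. No listed marker present in the table was at 0 in all libraries.

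The genes most like the 4 members that varied most (SD of log2 CPM of at least 0.5) were taken from 10139 genes by the smallest root mean square difference of centred log2 CPM over the 8 libraries. Nearest to Tgfb1 were Ubash3b (0.143), Rftn1 (0.159) and Plau (0.177), and nearest to Tgfb2 were Atp2a2 (0.221), Srp54b (0.223) and Eef2k (0.227). Nearest to Tgfb3 were Hk1 (0.195), Thbd (0.214) and Col4a2 (0.217). Nearest to Skil were Macf1 (0.108), Lrrc58 (0.120) and Wdfy3 (0.124), each with its lowest level in Yap control 2 as well, for example 70.6 CPM for Macf1 against 246 CPM in Yap control 1. These are descriptions over 8 libraries that share the same 2 outlying libraries.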

How the data were processed

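Whole-liver RNA from 8 libraries was sequenced. The labels name 2 library kits, with no map to libraries. The deposited values are raw counts per gene symbol; bcl2fastq 2.20.0.422, STAR 2.6.0a, HTSeq 0.6.1 and the build GRCm38 (mm10) are named per the submitters' processing notes. The sources used here do not state whether counting used strand. Samples were grouped by the labels, with no pooling.

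Genes with low counts were removed (filterByExpr), libraries scaled by TMM, and 1 model of the 4 groups fitted to all 8 libraries with edgeR 4.0.16 in R 4.3.3 (quasi-likelihood F test, 4 residual degrees of freedom, biological coefficient of variation 27.2%, Benjamini-Hochberg adjustment over 13999 genes, threshold 0.05). Contrasts were each knockout against its control, the 2 controls, and the difference of the knockout effects. The fit was tested on simulated data with 200 changed genes and no outlying library. That test does not cover outlying libraries such as those here, and its outcome is not reported here. Exon lengths came from GENCODE and promoters from RefSeq. Alternatives used other scalings, filters and libraries, a replicate block, DESeq2 1.42.0 and limma-voom (limma 3.58.1).

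Named were all members, Yap1 and Ctgf, and from each of the 6 pathway lists and each comparison up to 3 genes past the threshold, or otherwise the 2 with the smallest p; the text gives a part of these, and 1 gene of the lists, included in their counts, is not reported here. Other genes of the response list, and Ctgf in it, were chosen after their values were seen. The members, the 6 pathway lists and the 13 marker lists were chosen with earlier results of these data known.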

Additional observations from a re-analysis of the deposited data

How the results depend on the processing

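Over all 9 members and 4 comparisons, most alternatives kept both the direction and the side of the threshold: 146 of 162 values for Yap1 deletion, 150 of 162 for the Ctgf comparison, 137 of 162 between the controls and 139 of 153 for the difference of the effects. Where a cause is not stated below, the cause was not tested.

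Members called with Yap1 deletion numbered 0 in the 8-library fit, 2 with DESeq2, 2 without both doubted libraries (Yap control 2 and Ctgf knockout 2) and 0 to 5 with 1 library left out. Between the controls the 1 call became 0 with upper quartile scaling, 0 with only the libraries of the comparison, 3 with DESeq2, 8 without both doubted libraries and 0 to 3 with 1 library left out. For the difference of the effects the 0 calls became 1 with DESeq2, where 166 genes were called in all. Calls of members also appeared with some libraries left out, in fits with 1 library in a group. Pathway genes called with Yap1 deletion numbered 0, 12 with DESeq2, 17 without both doubted libraries and 0 to 31 with 1 library left out. Between the controls the 12 became 28, 42 and 0 to 38 in that order, and 0 with only the libraries of the comparison. For the difference the 0 became 2, 6 and 0 to 22.

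The titles name each Yap control as the control of a numbered knockout. For replicate 2 that number is in the column name of Yap1 knockout 2, for replicate 1 it is in the control's own column name, and no source says what the numbers mark, so the pairing of replicates is uncertain (correlation of deviations 0.07 in the Yap pair, 0.07 in the Ctgf pair and -0.12 between the controls). With the replicate block 0 members and 0 pathway genes were called with Yap1 deletion, the 1 member call between the controls became 0, Skil turned to -0.031 there, and no other count of member or pathway calls moved by over 1.5 times.

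Values that changed sign, as log2 fold changes, were these. Without both doubted libraries, Yap1 deletion gave -0.060 for Tgfb2, -0.27 for Smad7 and -0.051 for Skil. The Ctgf comparison then gave 0.22 for Tgfb2, -0.28 for Tgfb3, -0.24 for Tgfbr1, 0.16 for Tgfbr2 and -0.0091 for Smad7, and the difference gave -0.28 for Tgfb2, -0.33 for Tgfbr3 and -0.26 for Smad7. With limma-voom the controls gave -0.093 for Tgfbr1 and -0.17 for Skil. With 1 library left out, Yap1 deletion ranged from -0.37 to 0.19 for Tgfb1, -0.059 to 0.67 for Tgfb2, -0.26 to 0.76 for Smad7 and -0.050 to 1.84 for Skil. The Ctgf comparison ranged from -0.99 to 0.25 for Tgfb1, -1.14 to 0.23 for Tgfb2, -0.28 to 0.49 for Tgfb3, -0.24 to 0.30 for Tgfbr1, -0.55 to 0.16 for Tgfbr2, -0.13 to 0.43 for Tgfbr3 and -0.0094 to 0.11 for Smad7. The controls ranged from -0.69 to 0.51 for Tgfbr1, -0.33 to 0.70 for Smad7 and -1.13 to 0.76 for Skil. The difference ranged from -0.38 to 0.88 for Tgfb1, -0.073 to 0.61 for Tgfbr3 and -0.31 to 0.71 for Smad7. Groups of 2 libraries limit the precision throughout; Tgfb2 and Tgfb3 have the fewest counts of the members.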

Other observations

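The related BMP and activin branch had 34 of its 35 listed genes in the table and 30 tested, with 0 called by edgeR with Yap1 deletion. Inhbb, a subunit of activin B, stood at 62.8 and 50.8 CPM in the Yap controls and 127 and 127 CPM in the Yap1 knockouts (log2 fold change 1.16 ± 0.22, adjusted p = 0.12; DESeq2 adjusted p = 0.00087). Inhbc, a subunit made by hepatocytes, had the opposite order, at 89.5 and 126 against 47.7 and 36.3 CPM (-1.36 ± 0.26, adjusted p = 0.12; DESeq2 adjusted p = 0.00048). Between the controls 2 genes of the branch were called higher in the Yap line: Inhbb (1.88 ± 0.23, adjusted p = 0.0234), with 14.4 and 16.5 CPM in the Ctgf line, and the secreted glycoprotein Fstl1 (2.24 ± 0.35, adjusted p = 0.0332). The activin-binding protein Fst stood at 31.5 and 26.1 against 7.65 and 9.33 CPM in the 2 control groups (adjusted p = 0.0522).

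Lrrc32 anchors latent TGF-beta on cell surfaces. It stood at 61.3 and 32.4 CPM in the Yap controls and 122 and 109 CPM in the Yap1 knockouts. Its log2 fold change was 1.30 ± 0.31 (edgeR adjusted p = 0.178, DESeq2 adjusted p = 0.00842). Itgb5, named from the same list, went the other way, at 103 and 130 against 87.0 and 80.4 CPM (-0.48 ± 0.19, edgeR adjusted p = 0.346). Of the 15 genes of that list, 6 had both knockouts above both controls and 3 below, against 23.6% and 20.8% of all genes.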
